A study of Mus musculus with 11 samples.

Results

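A set of 10 genes of the effector memory type of T cell was followed in bulk RNA sequencing of mouse renal CD4+ T cells: the calcium-binding S100 proteins S100a4, S100a6, S100a10 and S100a11, the annexins Anxa1 and Anxa2, the galectins Lgals1 and Lgals3, the intermediate filament Vim and the scaffold Ahnak. The members were chosen by symbol, as genes known to be raised in effector memory T cells, and the list was proposed with earlier results of these libraries in view. Their fold changes and adjusted p-values are therefore a description and support nothing beyond themselves. All 10 symbols were found among the 35814 symbols of the count table, and 9 had enough counts to be tested. S100a10 did not.

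The cells were sorted on day 2 after renal ischemia–reperfusion injury (IRI), in which both renal pedicles are clamped and released, from male mice on a C57BL/6 background. The 3 control libraries came from CD4cre mice, which express Cre recombinase under the CD4 promoter and are labelled WT. The 5 CD4IKK1Δ libraries came from mice that carry the same Cre with a floxed Chuk gene, which encodes IKK1, and the 3 CD4NIKΔ libraries from mice that carry it with a floxed Map3k14 gene, which encodes NIK. Both kinases act in the noncanonical arm of the NFκB pathway. The CD4 promoter is active in double-positive thymocytes, so the deletion also reaches cells that later become CD8+ T cells. No sham-operated library is among the 11, so levels are compared between genotypes only.

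T cells that have met antigen move from the naive to the effector and memory states and change their cytoskeleton, adhesion and secretion. S100 proteins are small calcium sensors that bind target proteins, and S100a10 and S100a11 pair with the annexins Anxa2 and Anxa1. Annexins bind phospholipid membranes when calcium rises, and Anxa1 is also a secreted ligand of formyl peptide receptors. Galectins bind beta-galactoside sugars on glycoproteins. In memory T cells of blood and tissue, S100a4, S100a6, Lgals1, Vim and Ahnak are among the usual genes that set these cells apart from naive cells, but macrophages and fibroblasts use most of these genes as well.

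The 4 S100 members lie on chromosome 3 of the GRCm39 build, S100a4 at chr3:90511074-90513354 near S100a6 at chr3:90520140-90535843, and S100a11 at chr3:93414382-93435293 near S100a10 at chr3:93462213-93474510. The other members are apart: Anxa1 at chr19:20350792-20368374, Ahnak at chr19:8966311-9055220, Anxa2 at chr9:69360542-69399077, Lgals1 at chr15:78810875-78814670, Lgals3 at chr14:47605208-47623624 and Vim at chr2:13578738-13587639. In their canonical GENCODE transcripts they range from 503 bases in 3 exons for S100a4 to 18437 bases in 5 exons for Ahnak. Of the 10, 8 matched an entry of the RefSeq promoter table of the GRCm38.p6 build, while S100a10 and Lgals1 did not. The window of 250 bases before the annotated start was searched on both strands for the TATA box letters TATAAA, the GC box letters GGGCGG, the AP-1-like letters TGANTCA and the κB consensus. TATAAA was found for 4 of the 8 (S100a4, Vim, Anxa1 and Anxa2), against 12.4% of 32851 windows of the same length. GGGCGG was found for 4 (S100a11, Anxa2, Lgals3 and Ahnak; 32.7% of all windows), TGANTCA for 2 (S100a11 and Anxa2; 6.75%) and the κB consensus for 2 (Vim and Lgals3; 7.25%). No match of a motif overlapped a match of another, and TGANTCA reads the same on both strands. The last 120 bases before the start follow for the 4 members with TATAAA and for S100a11, which has TGANTCA but not TATAAA. They are written 5′ to 3′ on the gene's strand, with TATAAA and TGANTCA in capitals and the GC boxes left in lower case.
S100a4 (GRCm38.p6 chr3:90603650-90603769, plus strand): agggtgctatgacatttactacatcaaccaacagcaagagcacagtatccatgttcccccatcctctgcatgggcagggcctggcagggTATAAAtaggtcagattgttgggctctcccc
Vim (GRCm38.p6 chr2:13574191-13574310, plus strand): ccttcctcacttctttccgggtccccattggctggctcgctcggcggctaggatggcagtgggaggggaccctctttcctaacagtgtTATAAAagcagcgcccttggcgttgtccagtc
Anxa1 (GRCm38.p6 chr19:20390672-20390791, minus strand): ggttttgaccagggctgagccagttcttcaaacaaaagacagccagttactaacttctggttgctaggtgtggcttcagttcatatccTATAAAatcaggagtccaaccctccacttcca
Anxa2 (GRCm38.p6 chr9:69453563-69453682, plus strand): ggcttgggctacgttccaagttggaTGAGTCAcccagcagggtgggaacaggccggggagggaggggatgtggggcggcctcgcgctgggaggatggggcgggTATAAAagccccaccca
S100a11 (GRCm38.p6 chr3:93520376-93520495, plus strand): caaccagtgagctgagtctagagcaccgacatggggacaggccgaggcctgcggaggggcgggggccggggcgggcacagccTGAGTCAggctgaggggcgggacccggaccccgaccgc
In S100a4 the TATAAA began 31 bases before the annotated start, in Vim and Anxa1 32 bases and in Anxa2 17 bases before it. A match is a description of the letters only, and the libraries hold no measure of binding.

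The libraries held between 15751632 and 25737046 estimated counts, and a floor of 3 counts was worth 0.117 to 0.191 CPM (counts per 1000000 of the library, with TMM factors applied as well to the gene levels given here). The targeted genes did not separate the groups as labelled. Chuk differed by -0.11 on the log2 scale between CD4IKK1Δ and CD4cre (edgeR, adjusted p = 0.921) and Map3k14 by 0.30 between CD4NIKΔ and CD4cre (edgeR, adjusted p = 0.575). Map3k14 was instead lowest in CD4IKK1Δ, where it is not the targeted gene, with 1.87 to 9.24 CPM against 14.7 to 19.6 CPM in CD4cre and 12.8 to 30.8 CPM in CD4NIKΔ (-1.58 against CD4cre; edgeR, adjusted p = 0.148, and DESeq2, adjusted p = 0.0166). Counts over a whole gene need not fall when an exon is removed, so CD4IKK1Δ and CD4NIKΔ are used here as names of the libraries so labelled. T cell transcripts varied widely: the summed counts of 20 pan T cell genes were 37787 to 87535 in CD4cre, 4273 to 30212 in CD4IKK1Δ and 162131 to 242456 in CD4NIKΔ, and replicate 1 of CD4IKK1Δ had only 41 counts of T cell receptor constant genes. In bulk samples, fewer cells of a type and less RNA per cell cannot be told apart. The labels number the libraries of a group as biological replicates.

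S100a10, which forms a complex with Anxa2 at membranes, was at or under the floor in 9 of 11 libraries, with at most 21 counts. The table lists other broadly used genes close to 0 as well. Pgk1, a glycolysis enzyme, had 0 to 36 counts, and Itgb1, the integrin beta chain, 0 to 113. Both were named after their values were seen, and the level of S100a10 is not read further for that reason.

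By the mean CPM of a group, CD4NIKΔ had the highest level of each of the 9 tested members, although 1 CD4IKK1Δ library reached it for S100a4 and the order of the groups changed for some members relative to T cell transcripts. Every one of the 9 tested members was higher in CD4NIKΔ than in CD4cre, from 2.23-fold for Lgals3 to 11.3-fold for Anxa1, except that Lgals3 and Ahnak turned lower once the libraries were scaled to their T cell transcripts, as given further on. On the unscaled measure S100a4, Lgals1, Vim and S100a6 lay between 5.65-fold and 9.12-fold. By the thresholds of the study, an adjusted p under 0.05 and more than 2-fold, 9 of 9 were called higher, where 10.4% of the 15209 tested genes were. In all 9 the 3 CD4NIKΔ values lay above the 3 CD4cre values, which 22.9% of the tested genes also did.

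S100a4, a regulator of cell motility that binds nonmuscle myosin, had 9.03, 8.66 and 6.97 CPM in the 3 CD4cre libraries and 62.2, 97.5 and 68.3 CPM in the 3 CD4NIKΔ libraries. The 2 groups were far apart relative to the spread within each, with a log2 fold change of 3.19 ± 0.27 (SE; edgeR, adjusted p = 0.0016). S100a6, a cytosolic relative of S100a4, rose from 16.9, 29.3 and 25.1 CPM to 85.9, 174.8 and 148.0 CPM, by 2.50 ± 0.33 (edgeR, adjusted p = 0.00435). S100a11, which pairs with Anxa1, rose from 21.4, 39.5 and 25.8 CPM to 91.3, 206.9 and 148.4 CPM, by 2.34 ± 0.35 (edgeR, adjusted p = 0.00663). For both genes the lowest CD4NIKΔ library was replicate 1, and it was still above the highest control.

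Anxa1 had the largest and the least even difference. Its CD4cre values were 8.65, 15.6 and 3.51 CPM and its CD4NIKΔ values 24.9, 114.8 and 179.2 CPM, a log2 fold change of 3.50 ± 0.75 (SE; edgeR, adjusted p = 0.0198). Of the 3 CD4NIKΔ libraries, replicate 1 stood nearest to the highest control. Over the fits without 1 library the fold change of Anxa1 lay between 2.92 and 4.14. Its rank rested on CD4NIKΔ replicate 3, without which it was at 2.92 (edgeR, adjusted p = 0.0703), under S100a4 at 3.29 and Lgals1 at 3.12. Anxa2, a membrane organiser that also binds plasminogen, had 1.50, 6.18 and 2.31 CPM in CD4cre and 16.4, 18.3 and 10.0 CPM in CD4NIKΔ (2.15 ± 0.59; edgeR, adjusted p = 0.0367). That call was lost without any 1 of 5 of the 6 libraries, all but CD4cre replicate 2, and over the 6 fits the fold change lay between 1.80 and 2.98 on the log2 scale (edgeR, adjusted p of 0.0587 to 0.119 where lost). Its estimated count was not a whole number in any of the 11 libraries (tolerance 0.01), as estimated counts need not be.

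Lgals1, a secreted galectin that can induce death of activated T cells, rose from 25.2, 35.6 and 20.8 CPM to 195.9, 275.2 and 203.7 CPM, by 3.03 ± 0.27 on the log2 scale (SE; edgeR, adjusted p = 0.0017). Lgals3, a chimeric galectin that is also a macrophage product, had 55.4, 57.2 and 47.0 CPM in CD4cre and 162.7, 99.9 and 95.6 CPM in CD4NIKΔ, and its rise of 1.16 ± 0.26 was the smallest of the 9 (edgeR, adjusted p = 0.0223). Vim, the intermediate filament of lymphocytes and mesenchymal cells, rose from 63.7, 48.6 and 57.6 CPM to 547.4, 279.1 and 280.6 CPM (2.70 ± 0.31; edgeR, adjusted p = 0.00312). Replicate 1 of CD4NIKΔ, low for the S100 genes and Anxa1, was the highest for Vim and Lgals3. Ahnak, a giant scaffold that takes part in calcium signaling of T cells, rose from 50.8, 86.5 and 61.3 CPM to 199.9, 304.7 and 318.9 CPM (2.03 ± 0.27; edgeR, adjusted p = 0.00459).

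**Figure D1:**
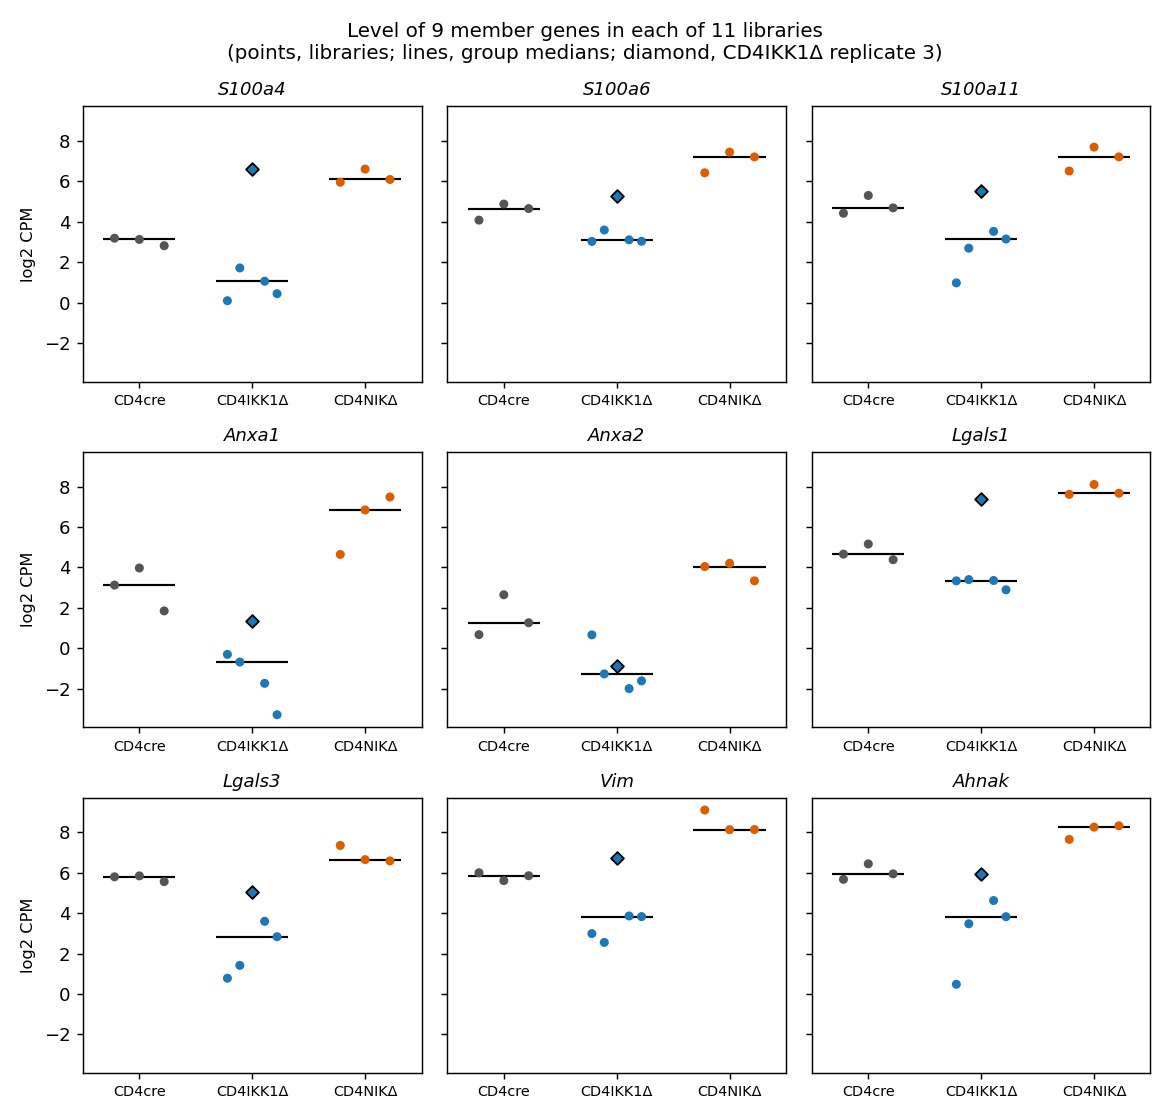
Log2 CPM, with a small prior count added, of the 9 tested members (vertical axis, 1 panel a gene) in each library of CD4cre, CD4IKK1Δ and CD4NIKΔ (horizontal axis). Points are libraries, lines are group medians and the diamond is replicate 3 of CD4IKK1Δ. For each gene the 3 CD4NIKΔ points lie above the 3 CD4cre points, and the diamond is the highest CD4IKK1Δ point in 8 of 9 panels.

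How many of these calls held depended on which libraries set the spread. With all 11 libraries in 1 fit, 1 of the 9 members was called (S100a6; edgeR, adjusted p = 0.0162), at almost the same fold changes, where 5.23% of genes were called higher. When replicate 3 of CD4IKK1Δ alone was kept out of that fit, 6 were called, where 5.68% of genes were called higher, a setting chosen after the data were seen. Leaving out any 1 of the 6 libraries of the comparison left 6 to 8 calls, with 3.80% to 10.7% of genes called higher. The calls lost were those of Anxa2 in 5 of the 6 fits, Anxa1 in 3 (without CD4cre replicate 3 or CD4NIKΔ replicate 2 or 3) and Lgals3 in 3 (without CD4cre replicate 2 or 3 or CD4NIKΔ replicate 1). With the replicate number as a block the same 3 members lost theirs (edgeR, adjusted p = 0.0515 each).

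In CD4IKK1Δ the 9 members did not move as a block. By edgeR 0 of 9 passed the thresholds against CD4cre, where 0.0% of the 15653 tested genes were called lower. At an unadjusted p under 0.05 there were 2592 genes in all (16.6%), and 3 members. DESeq2 called 1 member lower, Anxa1 (adjusted p = 0.018), where it called 3.99% of the 12610 genes with an adjusted p lower, and 553 genes in both directions. DESeq2 gave no adjusted p for S100a4, Anxa2, Lgals1 and Vim. The fitted levels were lower than in CD4cre for 7 members and higher for S100a4 and Lgals1, and 4 of the 7 (S100a6, S100a11, Anxa2 and Vim) turned higher under scaling to T cell transcripts. All 5 CD4IKK1Δ values lay below the 3 CD4cre values for Anxa1, Anxa2 and Lgals3, 3 of 9 members, which 8.44% of the tested genes also did.

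Anxa1 had 0.711, 0.523, 2.49, 0.199 and 0 CPM in the 5 CD4IKK1Δ libraries, below the lowest control of 3.51 CPM (log2 fold change -3.56 ± 1.10, SE; edgeR, adjusted p = 0.16). Anxa2 had 1.49, 0.314, 0.452, 0.149 and 0.225 CPM, the first of them next to the lowest control of 1.50 CPM (-2.67 ± 0.95; edgeR, adjusted p = 0.204). These Anxa2 levels rest on 3 to 23 counts a library. Lgals3 had 1.62, 2.57, 32.5, 12.0 and 7.03 CPM against at least 47.0 CPM in CD4cre (-2.26 ± 0.85; edgeR, adjusted p = 0.249).

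For the other members 1 library decided the picture. S100a4 had 0.969, 3.19, 97.8, 1.99 and 1.26 CPM, so that 4 libraries were below the lowest control and replicate 3 was above every library of the series (1.36 ± 1.72; edgeR, adjusted p = 0.784). Lgals1 had 10.0, 10.5, 165.3, 10.1 and 7.34 CPM, again with 4 libraries below CD4cre and replicate 3 above it (0.58 ± 1.23; edgeR, adjusted p = 0.89). Vim had 7.82, 5.76, 104.8, 14.4 and 14.1 CPM (-0.95 ± 0.97; edgeR, adjusted p = 0.713). For all 3 genes the other 4 values were under the lowest control.

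S100a6 had 8.08, 12.0, 38.1, 8.55 and 8.11 CPM (-0.67 ± 0.53; edgeR, adjusted p = 0.593). S100a11 had 1.87, 6.39, 46.6, 11.4 and 8.79 CPM (-0.94 ± 0.83; edgeR, adjusted p = 0.648). Ahnak had 1.29, 11.0, 61.2, 24.5 and 14.1 CPM (-1.56 ± 0.92; edgeR, adjusted p = 0.455). Replicate 3 was above all 3 controls for both S100 genes and level with the middle control for Ahnak.

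Replicate 3 of CD4IKK1Δ thus stood apart from the other 4 libraries of its group. It was the highest of the 5 libraries for 8 of 9 members, against 18.97% of 16546 genes, and more than 4-fold above the median of the other 4 for 8 of 9, against 5.39% of genes. That fold was 60.2 for S100a4, 16.4 for Lgals1, 9.56 for Vim, 6.89 for Anxa1, 6.77 for Lgals3, 6.14 for S100a11, 4.89 for Ahnak and 4.58 for S100a6, while Anxa2 was at 1.68. Set against the median of CD4cre, the same library was 11.3 times as high for S100a4 and 6.57 times for Lgals1, between 1.52 and 1.82 times for S100a6, S100a11 and Vim, and below 1 for Ahnak (0.999), Lgals3 (0.586), Anxa1 (0.288) and Anxa2 (0.196). Its level of both annexins was therefore under that of every control, while S100a4 and Lgals1 were far over it.

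Without replicate 3, all 9 members were lower in each of the 4 remaining CD4IKK1Δ libraries than in any CD4cre library, which 11.0% of the tested genes also were. Per count of pan T cell genes, 1 of 9 was (Lgals3), where 0.805% of genes were, and the medians of S100a6 (1.97 per 100 pan T counts) and Lgals1 (1.96) in these 4 libraries were above those of CD4cre (1.05 and 1.10). The fold changes of S100a4 and Lgals1 then turned to -2.15 and -1.52 on the log2 scale. Vim reached -2.43 ± 0.34 (SE; edgeR, adjusted p = 0.0506), Lgals3 -3.19 ± 0.61 (edgeR, adjusted p = 0.0825) and Anxa1 -4.70 ± 1.08 (edgeR, adjusted p = 0.107). All 9 were at an unadjusted p under 0.05, as were 2564 of the 15399 genes tested in that fit (16.7%), and 0 passed the adjusted threshold by edgeR, with 9 genes called in all.

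**Figure D2:**
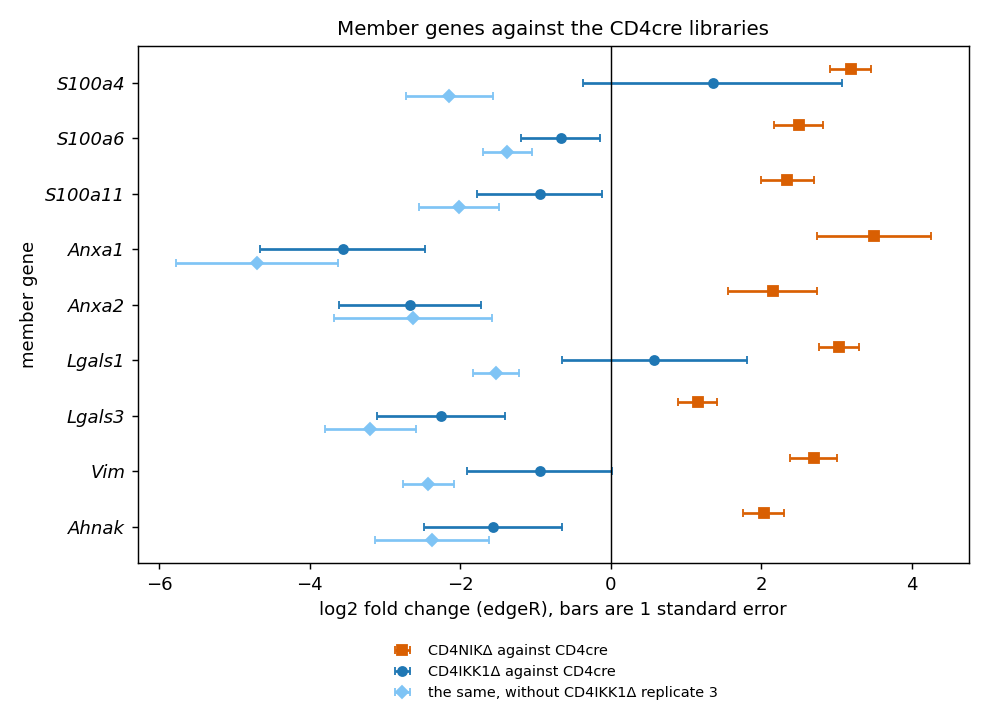
Log2 fold change of the 9 tested members against CD4cre by edgeR (horizontal axis, bars are 1 SE), for CD4NIKΔ (squares), CD4IKK1Δ (circles) and CD4IKK1Δ without replicate 3 (diamonds). The squares lie between 1.16 and 3.50, the circles on both sides of 0, and the diamonds between -4.70 and -1.37. Scaling to T cell transcripts, not plotted here, moves Lgals3 and Ahnak in CD4NIKΔ and S100a6, S100a11, Anxa2 and Vim in CD4IKK1Δ across 0.

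Markers of other cells were set beside replicate 3. The summed level of 20 pan T cell genes was 1708 CPM there and 276.1 to 887.1 CPM in the other 4 CD4IKK1Δ libraries. A list of 30 other effector memory genes summed to 3131 CPM against 1627 to 1889 CPM, with 17 of the 30 highest in replicate 3, whereas 18 naive and central memory genes summed to 1184 CPM, inside the range of 1126 to 1701 CPM, with 1 of 18 highest in it. The 15 macrophage and monocyte genes summed to 728.5 CPM, under the 741.4 to 1007 CPM of the others, and the 10 fibroblast and mural genes to 7.97 CPM, inside 3.73 to 17.1 CPM. Replicate 3 was the highest of the 5 for 13 of the 20 pan T genes, 2 of the 15 macrophage and monocyte genes and 2 of the 10 fibroblast and mural genes, against 18.97% of 16546 genes. Among the fibroblast genes, Pdgfrb did not exceed the floor in any library, Col1a1 had at most 21 counts, Lum at most 70, Fn1 at most 134 and Dcn at most 180, the last in another CD4IKK1Δ library. Apoe alone had 545 to 716 CPM in CD4IKK1Δ, so it made up most of the macrophage sum. The 8 endothelial genes summed to 193.6 CPM in replicate 3, inside 193.3 to 239.4 CPM, and the 10 glia genes to 703.1 CPM, inside 573.6 to 771.2 CPM. Replicate 3 was thus above the range of its group for the T cell and effector memory sums, and not for the macrophage, fibroblast, endothelial or glia sums.

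Compared directly, CD4IKK1Δ was below CD4NIKΔ for all 9 members, except that S100a4, S100a6, S100a11 and Lgals1 turned higher under scaling to T cell transcripts, and 7 of 9 were called lower, where 18.5% of 16546 genes were. For 8 members the 5 CD4IKK1Δ values lay below the 3 CD4NIKΔ values (24.4% of all tested genes), and for S100a4 the 97.8 CPM of replicate 3 lay just over the highest CD4NIKΔ library. The differences ran from -3.19 ± 0.52 for S100a6 (SE; edgeR, adjusted p = 0.000621) to -7.10 ± 1.10 for Anxa1 (edgeR, adjusted p = 0.000688) among those called. S100a4 (-1.85 ± 1.38; edgeR, adjusted p = 0.317) and Lgals1 (-2.47 ± 1.02; edgeR, adjusted p = 0.0811) were not called. Without replicate 3 they were, at -5.35 and -4.57, and the count was 9 of 9, where 18.6% of genes were called lower. This comparison shares its libraries with the other 2 and adds no separate evidence.

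Between the groups, but not always within them, the members moved with the amount of T cell RNA in a library. The mean log2 CPM of the 9 genes was 1.34 to 2.16 in the 4 CD4IKK1Δ libraries with 4273 to 17882 pan T counts, 4.11 to 4.78 in CD4cre and in replicate 3, and 6.59 to 7.10 in CD4NIKΔ. Within CD4cre, replicate 1 had 87535 pan T counts and a mean of 4.18, and replicate 2 had 57472 and 4.78. Replicate 3 of CD4IKK1Δ reached 4.78 with 30212 pan T counts, fewer than any CD4cre library. Counts of each member per 100 pan T counts were therefore compared. S100a4 was at 0.269, 0.310 and 0.368 per 100 in CD4cre and at 0.695, 0.818 and 0.521 in CD4NIKΔ, so that the groups stayed apart. Lgals1 was at 0.748, 1.27 and 1.10 in CD4cre and at 2.19, 2.31 and 1.56 in CD4NIKΔ, also without overlap. These were the only 2 of the 9 members all higher on this measure, where 1.66% of the tested genes were, and the other 7 overlapped. Vim was at 1.89, 1.74 and 3.04 against 6.12, 2.34 and 2.14, and Anxa1 at 0.257, 0.559 and 0.185 against 0.279, 0.963 and 1.37. Lgals3 had 1.65, 2.05 and 2.48 in CD4cre and 1.82, 0.838 and 0.730 in CD4NIKΔ, so that 2 of the 3 CD4NIKΔ libraries fell below every control.

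When the edgeR fit was scaled to the pan T transcripts, the median of all genes in CD4NIKΔ against CD4cre moved to -2.12 on the log2 scale and that of the members to 0.31. On that scale 1 of 9 members was called higher, where 0.789% of genes were, S100a4 at 1.11 ± 0.41 (SE; edgeR, adjusted p = 0.0298). Anxa1 had a larger fold change, 1.38 ± 0.60, but was not called (edgeR, adjusted p = 0.0562). Lgals1 was at 0.96 ± 0.37, under 2-fold (edgeR, adjusted p = 0.0357), Lgals3 was at -0.87 and Ahnak at -0.12. In CD4IKK1Δ against CD4cre the median of all genes was 2.23 and that of the members 0.32, and S100a4 (2.22; edgeR, adjusted p = 0.0313) and Lgals1 (1.80; edgeR, adjusted p = 0.0444) were called higher, 2 of 9 members where 55.0% of all genes were called higher. S100a4 stood at 5.73 per 100 pan T counts in replicate 3 and at 0.157 to 0.845 in the other 4, a range that holds the CD4cre values. Lgals1 stood at 9.68 in replicate 3, at 3.63 and 2.77 in replicates 1 and 2, and at 1.14 and 0.912 in replicates 4 and 5.

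**Figure D3:**
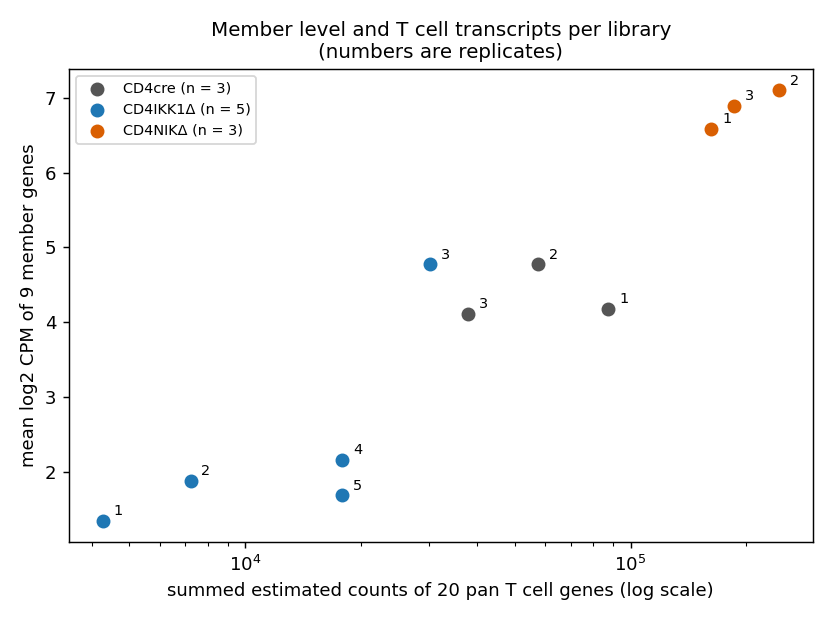
Mean log2 CPM of the 9 tested members (vertical axis) against the summed estimated counts of 20 pan T cell genes (horizontal log axis), 1 point a library, with replicate numbers. The CD4NIKΔ libraries are at the upper right, 4 CD4IKK1Δ libraries at the lower left, and replicate 3 of CD4IKK1Δ (4.78) at the height of the CD4cre libraries (4.11 to 4.78) with 30212 pan T counts.

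**Figure D4:**
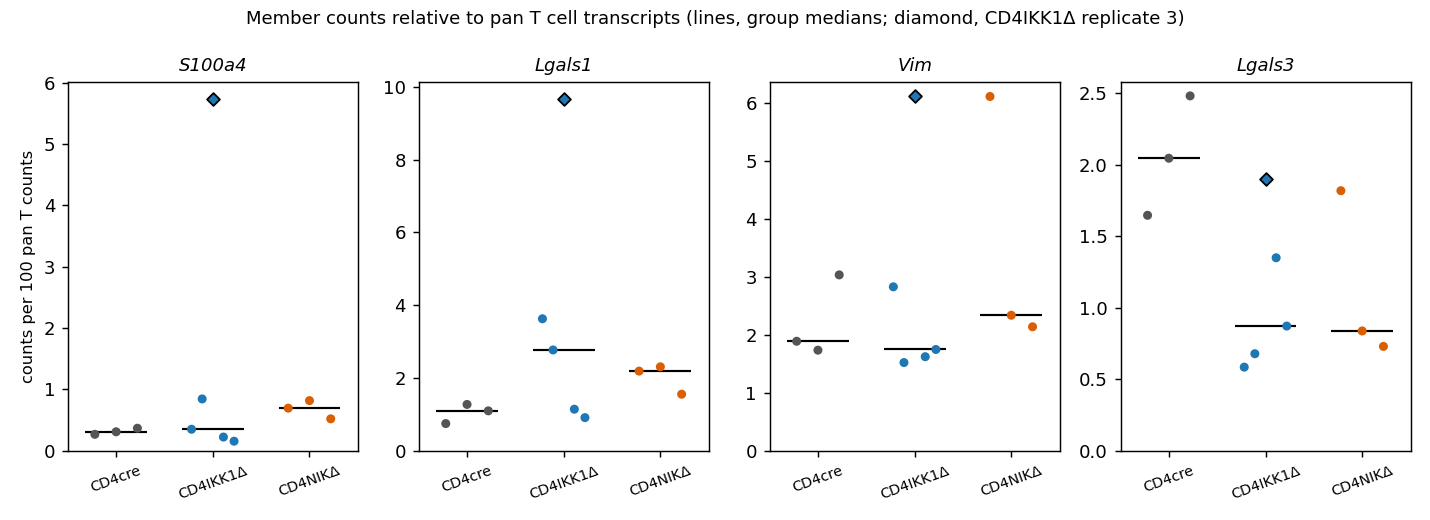
Estimated counts of S100a4, Lgals1, Vim and Lgals3 per 100 counts of pan T cell genes (vertical axes, each from 0) in each library. Points are libraries, lines are group medians and the diamond is replicate 3 of CD4IKK1Δ, which stands at 5.73 for S100a4 and 9.68 for Lgals1. S100a4 and Lgals1 remain higher in CD4NIKΔ than in CD4cre, Vim overlaps, and 2 of the 3 CD4NIKΔ points of Lgals3 lie below CD4cre.

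Levels between genes were compared per kilobase of the canonical transcript. On that scale Lgals3 was the most abundant member in CD4cre, with a mean of 38.7 CPM per kilobase, before Lgals1 with 31.8, S100a6 with 30.5 and Vim with 25.8. In CD4NIKΔ Lgals1 led with 263.1, followed by S100a6 with 174.6, Vim with 168.3 and S100a4 with 151.1, and then by Lgals3 with 86.7. Anxa2 was the lowest tested member in CD4cre with 2.30 CPM per kilobase, after Ahnak with 3.59 and Anxa1 with 5.32.

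The other genes of the 3 families were counted in the same way, beside 10.4% of all genes called higher in CD4NIKΔ. Their values, and those of the lists after them, were not computed on the scale of T cell transcripts, so their directions hold for the TMM scale only. Of 12 other S100 genes, 6 were tested and 1 was called in CD4NIKΔ against CD4cre: S100a13, which takes part in unconventional secretion, rose from 23.9 to 54.0 CPM on average (1.16 ± 0.24, SE; edgeR, adjusted p = 0.0183). S100a16, the most abundant of them in CD4IKK1Δ, had 33.2 CPM in CD4cre and 16.8 CPM in CD4NIKΔ (-0.99 ± 0.44; edgeR, adjusted p = 0.14), and S100b, a glial S100 gene, 35.6 and 17.6 CPM (-1.03 ± 0.32; edgeR, adjusted p = 0.0515). The neutrophil pair S100a8 and S100a9 was listed at 0 counts in all 3 CD4NIKΔ libraries. Of 10 other annexins, 6 were tested and 2 rose: Anxa6, a lymphocyte annexin, from 51.9 to 258 CPM (2.30 ± 0.29; edgeR, adjusted p = 0.00405), and Anxa5, which binds phosphatidylserine, from 3.05 to 12.7 CPM (2.04 ± 0.43; edgeR, adjusted p = 0.0189). Anxa7, named after its values were seen, averaged 79.5 CPM in CD4cre, 92.9 CPM in CD4IKK1Δ and 91.4 CPM in CD4NIKΔ. Of 8 other galectin genes in the table, 5 were tested and Lgals8 rose from 8.15 to 37.9 CPM (2.20 ± 0.33; edgeR, adjusted p = 0.00663). DESeq2 called the same 4 of 17 tested relatives higher in CD4NIKΔ and also S100b lower (adjusted p = 0.0121). In CD4IKK1Δ against CD4cre, 0 of 16 tested relatives were called by edgeR, 3 were at an unadjusted p under 0.05 (16.6% of all genes), and 0 were called by DESeq2. Against CD4NIKΔ, CD4IKK1Δ was lower for S100g, a calcium-binding protein of epithelia (-4.84 ± 1.30; edgeR, adjusted p = 0.00966), and for S100a13, Anxa5, Anxa6 and Lgals8. It was higher for S100a16, S100b and Lgalsl, a galectin-like gene (1.01 ± 0.29; edgeR, adjusted p = 0.0131).

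Partners and receptors of the family gave 0 calls by edgeR among 8 tested in either comparison with CD4cre. In CD4IKK1Δ, 3 were at an unadjusted p under 0.05 and DESeq2 called 2, and in CD4NIKΔ the counts were 1 and 1. Of all genes, 16.6% and 36.9% were at that unadjusted p in the CD4IKK1Δ and CD4NIKΔ comparisons. The list holds the Anxa1 receptors Fpr1 and Fpr2, the S100 receptor Ager and the myosin chain Myh9. Fpr1 and Fpr2 had at most 18 and 22 counts in a library and were not tested between CD4IKK1Δ and CD4cre. Myh9, which S100a4 binds, averaged 13.1 CPM in CD4cre, 2.64 CPM in CD4IKK1Δ (-2.31 ± 0.54, SE; edgeR, adjusted p = 0.0938) and 26.0 CPM in CD4NIKΔ (0.96 ± 0.61; edgeR, adjusted p = 0.283). Between CD4IKK1Δ and CD4NIKΔ it was called lower (-3.29 ± 0.55; edgeR, adjusted p = 0.000559), as was Plec, a linker of intermediate filaments (-1.82 ± 0.31; edgeR, adjusted p = 0.000598), and Plat, the tissue plasminogen activator, was called higher (1.57 ± 0.38; edgeR, adjusted p = 0.00581). Lmna, an intermediate filament of the nucleus, was the most abundant of the list, with 49.9 CPM in CD4cre, 50.2 CPM in CD4IKK1Δ and 54.3 CPM in CD4NIKΔ (0.10 ± 0.22 for CD4NIKΔ against CD4cre; edgeR, adjusted p = 0.763).

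Most of the 30 other effector memory genes were higher in CD4NIKΔ as well. In CD4NIKΔ against CD4cre 25 of 30 were called higher and 0 lower, beside 10.4% of all genes called higher, with a median log2 fold change of 2.30, next to 2.50 for the 9 members and -0.02 for all tested genes. The chemokine receptors Cxcr6 (3.71; edgeR, adjusted p = 0.0055) and Cxcr3 (3.40; edgeR, adjusted p = 0.00357), the adhesion receptor Cd44 (2.72; edgeR, adjusted p = 0.00255) and the granzyme Gzma (3.96; edgeR, adjusted p = 0.0197) were among them, named after their values were seen. In CD4IKK1Δ against CD4cre the mean was lower for 27 of 28 tested, with 0 called by edgeR, 8 at an unadjusted p under 0.05 (16.6% of all genes), 5 called lower by DESeq2 (3.99% of genes with an adjusted p) and a median of -1.68. The other T cell lists lay as low there, with 16 of 18 naive and central memory genes lower (median -1.64, 8 at an unadjusted p under 0.05, 4 called by DESeq2) and 19 of 20 pan T genes lower (median -1.995, 4 and 1), and 0 of either list called by edgeR. Against CD4NIKΔ, 26 of 30 effector memory genes were called lower, beside 18.5% of all genes. The naive and central memory list had 5 of 18 called higher in CD4NIKΔ with a median of 0.97, and the pan T list 15 of 20 with a median of 2.06. These lists were drawn up with earlier results of these libraries known.

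Transcripts of other cells differed between the groups too. The 15 macrophage and monocyte genes summed to 1144 to 3697 CPM in CD4cre, 728.5 to 1007 CPM in CD4IKK1Δ and 1412 to 2272 CPM in CD4NIKΔ, with 0 of 13 called between CD4NIKΔ and CD4cre by edgeR, 1 at an unadjusted p under 0.05 and 1 called higher by DESeq2. Of all genes in that comparison, edgeR called 10.4% higher and 6.99% lower, and 36.9% were at an unadjusted p under 0.05. DESeq2 called 9.47% higher, with genes without an adjusted p in the base. In CD4IKK1Δ against CD4cre 0 of 12 were called by edgeR, 7 were at an unadjusted p under 0.05 and 6 were called lower by DESeq2, with a median of -2.03 beside -0.95 for the members. Of all genes in that comparison 16.6% were at an unadjusted p under 0.05, and DESeq2 called 3.99% of those with an adjusted p lower. Against CD4NIKΔ, 7 of 13 were called lower by edgeR, beside 18.5% of all genes. Lyz2, a macrophage and neutrophil lysozyme, had 82.8 to 351 CPM in CD4cre, 0.942 to 23.5 CPM in CD4IKK1Δ and 174.2 to 328 CPM in CD4NIKΔ. The 8 B cell genes summed to 67.9 to 140.4 CPM in CD4cre, 4.33 to 25.8 CPM in CD4IKK1Δ and 193.7 to 664.4 CPM in CD4NIKΔ, and the 11 neutrophil genes to 4.21 to 18.3, 3.72 to 11.0 and 16.7 to 108.4 CPM. Of the neutrophil genes, Mmp9 averaged 69.7 CPM in CD4NIKΔ and the next highest, Csf3r, 1.48 CPM. Ly6g, S100a8, S100a9, Camp and Ngp averaged at most 0.082 CPM there, so the sum does not show a rise of the list. The 8 NK and innate lymphoid genes summed to 57.0 to 129.7, 19.0 to 51.0 and 317.8 to 397.0 CPM. The 11 dendritic cell genes summed to 73.0 to 110.6, 10.0 to 23.6 and 175.4 to 451.7 CPM. Between CD4NIKΔ and CD4cre, edgeR called higher 3 of 7 tested NK and innate lymphoid genes, 3 of 9 dendritic cell genes and 1 of 3 B cell genes. It called 0 of 3 neutrophil genes. In the opposite direction, 12 neuron genes summed to 2936 to 3623 CPM in CD4cre, 3767 to 4381 CPM in CD4IKK1Δ and 990.4 to 2027 CPM in CD4NIKΔ. Of these, edgeR called 8 of 12 lower in CD4NIKΔ than in CD4cre. The 8 endothelial genes summed to 178.8 to 196.7, 193.3 to 239.4 and 103.9 to 127.5 CPM (1 of 6 called lower, 1 higher). The 10 glia genes summed to 629.7 to 709.2, 573.6 to 771.2 and 439.2 to 695.9 CPM (2 of 8 called lower, 1 higher). The 12 kidney tubule genes summed to 18.4 to 91.0 CPM in CD4cre, 5.601 to 12.2 CPM in CD4IKK1Δ and 18.4 to 123.0 CPM in CD4NIKΔ. Of the tubule genes tested between CD4IKK1Δ and CD4cre, 8 of 8 had lower fitted levels in CD4IKK1Δ (median -2.04), 4 at an unadjusted p under 0.05 and 0 called by edgeR or DESeq2. The 7 erythroid genes summed to 2080 to 2680, 532 to 1612 and 1177 to 8185 CPM. Of the erythroid genes tested in the same comparison, 5 of 6 had lower fitted levels (median -1.40), 4 at an unadjusted p under 0.05, 0 called by edgeR and 4 called lower by DESeq2. The part of these transcripts in the member levels was not tested.

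Over the 11 libraries some members were more alike than others. Likeness of a pair of genes was measured as the root mean square distance between their centred log2 CPM values over the 11 libraries. The 16546 genes kept were compared. S100a4 and Lgals1 were each other's nearest member, at 0.618, and so were S100a11 and Ahnak, at 0.498. Anxa1 was the member farthest from 7 of the other 8, up to 2.03 from Lgals3, and S100a4 was the farthest from Anxa2, at 1.91. Among all other genes the nearest to S100a4 was Top2a at 0.697, which encodes a topoisomerase of dividing cells, and the nearest to Lgals1 was the histone gene H2bc9 at 0.561. The nearest to S100a6 was Mx1 (0.425) and to S100a11 Bst2 (0.331), both interferon-induced genes. Lgals3 was nearest to Cish (0.400), Vim to Mapkapk3 (0.513), Ahnak to Esyt1 (0.339), Anxa2 to Gm49760 (0.770) and Anxa1 to Ly6g5b (0.951). The median distance from a member to all genes was 1.77 for S100a6 to 3.38 for Anxa1.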

How the data were processed

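RNA of sorted renal CD4+ T cells was amplified with SMARTer chemistry and sequenced in pairs on an Illumina instrument. Per the study's methods and the submitters' notes, the authors trimmed reads with Trimmomatic, quantified them with kallisto and tested them with DESeq2. The methods name the GRCm39 build and the notes mm10. The authors deposited estimated counts per gene symbol, which are not all whole numbers. Of the symbols, 93.56% were in GENCODE release 39.

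Whole-number rounding came first, and CPM used TMM factors. Tests used edgeR 4.0.16 (R 4.3.3), robust quasi-likelihood with filterByExpr, and Benjamini-Hochberg adjustment over all tested genes. A gene was called at an adjusted p under 0.05 and over 2-fold. CD4IKK1Δ and CD4NIKΔ were each fitted with CD4cre alone, and against each other with all 11 libraries. Alternatives were DESeq2 1.42.0, other scalings and filters, other libraries in the fit, a replicate block and each library left out. The script was tested on simulated data. No pair of the 55 library pairs was identical.

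The members and lists were chosen with earlier results of these data known. All members were described in every library. Relatives and partners were named where called or where the most abundant of their list, at most 4 a list, and the nearest gene outside the 10 was named for each member. S100a10 failed the filter. The floor of 3 counts covers counting error only, and the SE values come from the edgeR fits and hold the spread between libraries.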

Additional observations from a re-analysis of the deposited data

Results flagged for a closer look

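Within the 5 CD4IKK1Δ libraries, a gap test (Dixon, 95% level) marked 1 library as far from the others for 7 of the members. Replicate 3 was the high one for S100a4 at 97.8 CPM, S100a6 at 38.1 CPM, S100a11 at 46.6 CPM, Anxa1 at 2.49 CPM, Lgals1 at 165.3 CPM and Vim at 104.8 CPM. For Anxa2 it was replicate 1, at 1.49 CPM, which rests on 23 counts. The level is set to mark about 1 in 20 groups by chance, but on these CPM values it marked 12.18% of 16546 genes, and replicate 3 as the high library in 2.40%. The genes share libraries, so the 6 marks on replicate 3 are not independent of each other. Lgals3 and Ahnak were also highest in replicate 3 without being marked. Groups of 3 libraries were not tested in this way.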

How the results depend on the processing

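In CD4IKK1Δ against CD4cre, the number of genes called was 0 and became 1 with RLE factors, 48 with a filter of 1 count in any library, 159 with 10 counts in every library, 129 with all 11 libraries in the fit, 3 with the replicate block, 553 with DESeq2 and 8640 with scaling to pan T transcripts, and ranged from 0 to 23 when 1 library was left out. Members called were 0, but 1 with DESeq2 and 2 with pan T scaling. In CD4NIKΔ against CD4cre, 2649 genes were called, 1185 with the block, 10389 with pan T scaling and 674 to 3468 when 1 library was left out. The fewest came without CD4NIKΔ replicate 3. Members called were 9, but 1 with all 11 libraries in the fit, 6 with 10, 1 with pan T scaling, 6 with the block, 8 with a filter of 1 count in any library and 6 to 8 when 1 library was left out. The split of calls was 1063 lower and 1586 higher, 1438 and 1382 with library size alone, 1264 and 865 with all 11 libraries in the fit, 1193 and 929 with 10, 190 and 995 with the block, and 10269 and 120 with pan T scaling. It was 60 and 614 without CD4NIKΔ replicate 3, 66 and 852 without replicate 2 and 1773 and 1695 without replicate 1. Without 1 CD4cre library it ran from 79 and 780 to 786 and 1703. In CD4IKK1Δ against CD4NIKΔ, 5512 genes were called (13606 with pan T scaling, 145 lower and 13461 higher) and 7 members, all lower. Members called lower were 1 with pan T scaling (Anxa1, where 0.876% of genes were lower), 5 with DESeq2 (14.5% of genes, those without an adjusted p included), 5 of 7 tested with 10 counts in every library (22.1%) and 9 without CD4IKK1Δ replicate 3. The filter of 10 counts removed Anxa1 and Anxa2, and the other main calls were kept. Pan T scaling set the median of all genes to 4.38 there. DESeq2 gave no adjusted p for 4 members in this comparison and called the other 5. The causes were not tested beyond the construction of each setting.

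Directions turned in these cases. With pan T scaling, S100a6 was at 1.10, S100a11 at 0.40, Anxa2 at 0.031 and Vim at 0.32 in CD4IKK1Δ against CD4cre. Lgals3 was at -0.87 and Ahnak at -0.12 in CD4NIKΔ against CD4cre. S100a4 was at 1.12, S100a6 at 0.79, S100a11 at 0.21 and Lgals1 at 0.85 in CD4IKK1Δ against CD4NIKΔ. With the replicate block S100a4 was at -0.67 and Lgals1 at -0.28 in CD4IKK1Δ against CD4cre. Without CD4IKK1Δ replicate 3 they were at -2.15 and -1.52, over leave-one-out ranges of -2.15 to 1.66 for S100a4 and -1.52 to 0.85 for Lgals1. The deviations of libraries with the same replicate number correlated between -0.089 and 0.0772, so the numbers are not taken to pair the libraries. Low counts limit Anxa1 and Anxa2 in CD4IKK1Δ and S100a10 in every group.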

Other observations

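The gene nearest to S100a4 across the libraries was a gene of dividing cells, so 10 genes of the cell cycle were looked up after that was seen, and no test was made on them. Replicate 3 of CD4IKK1Δ was the highest of its group for 8 of the 10, against 18.97% of 16546 genes. It was above all 3 CD4cre libraries for 6, for which the share of all genes was not computed. Top2a stood at 16.1 CPM there, against 0.323 to 1.44 CPM in the other 4 CD4IKK1Δ libraries, 5.21 to 6.62 CPM in CD4cre and 41.9 to 48.0 CPM in CD4NIKΔ. Mki67, the usual proliferation marker, stood at 33.6 CPM, against 0.249 to 5.92, 8.19 to 9.24 and 26.0 to 56.4 CPM. Mcm5, a replication helicase subunit, stood at 17.3 CPM, against 2.13 to 10.7, 6.12 to 13.1 and 68.8 to 82.6 CPM. Stmn1, which is also high in neurons, was lowest in replicate 3, at 4.69 CPM against 10.1 to 14.2 CPM in the rest of its group.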
